A study of Capra hircus with 2 samples.

Results

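Cells import glucose and amino acids through membrane carriers of the solute carrier (SLC) families, and the goat ovary was described here through 76 such genes of the 27271 features in the deposited tables. They are the features whose symbol is SLC1A, SLC2A, SLC3A, SLC6A, SLC7A, SLC16A, SLC36A, SLC38A or SLC43A followed by digits only. The cells came from the ovaries of female goat (Capra hircus) fetuses of 2 embryonic ages given in days, E85 and E125, with 1 droplet single-cell library for each. No treatment, genotype or breed is given in the labels, and how many fetuses went into a library is not given in the sources used here. Stage and library therefore cannot be told apart, no test between stages was possible, and every interval below is a 95% interval that covers counting error only.

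The SLC2A family carries glucose and related sugars, and the SLC16A family carries monocarboxylates such as lactate and pyruvate. The SLC1A carriers take up glutamate, aspartate or small neutral amino acids, and many SLC6A carriers draw in glycine, GABA, proline, taurine or monoamines with sodium and chloride. Many SLC7A proteins are light chains that reach the membrane only when paired with the heavy chain SLC3A2 or SLC3A1, while many SLC36A and SLC38A proteins carry small neutral amino acids at the cell surface or in lysosomes. SLC43A1 and SLC43A2 carry large neutral amino acids. Growing oocytes use glucose poorly and depend on the surrounding granulosa cells for pyruvate and for some amino acids, part of which pass through gap junctions. Pregranulosa cells are the somatic cells that enclose each oocyte when primordial follicles form.

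Of the 76 genes, 66 had at least 1 unique molecular identifier (UMI, a counted transcript molecule) in the kept cells at E85 and 71 at E125, and SLC2A2, SLC6A18, SLC16A4, SLC16A8 and SLC36A3 had none in the kept cells of either library. At E125, 45 genes reached 50 UMIs in the kept cells. The libraries held 4397 and 8346 cell barcodes with 17748948 and 49692252 UMIs, of which 3832 and 7034 barcodes were kept at median depths of 3105.5 and 3180 UMIs, and 13 barcode sequences occurred in both libraries. Cells were clustered and named from marker genes, which gave 69 and 136 germ-cell-like cells and 292 and 807 pregranulosa-like cells. All 12 germ cell markers were detected in the germ-cell-like cells, with a summed level of 5333 CPM (UMIs scaled to a class total of 1000000) at E85 and 6719 CPM at E125, against 222 and 381 CPM in pregranulosa-like cells. DDX4, which marks germ cells, had 607 and 1155 UMIs in the germ-cell-like cells and 3 and 12 in the pregranulosa-like cells.

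Depth was uneven within the germ-cell-like class. Droplets of 20000 or more UMIs numbered 22 at E85 and 76 at E125 and held 90.4% and 98.3% of the class's UMIs, so class levels describe these large droplets. The 10 deepest held 66.4% of the UMIs at E85 and 23.3% at E125. Pregranulosa-like droplets of 20000 or more UMIs numbered 4 at E85 and 60 at E125. They held 6.02% and 38.6% of that class's UMIs, so depth was uneven there too at E125. Pregranulosa markers were counted in germ-cell-like droplets as well. Over all 69 droplets at E85, 7 of them had a mean per droplet of 0.0441 to 0.671 of that in a pregranulosa-like cell, and over all 136 at E125, 10 had 0.0205 to 2.66 of it. These ratios were far apart between markers, with AMH the lowest and AMHR2 the highest at E125, and the source of the UMIs was not tested. FST, a pregranulosa marker, averaged 0.0435 UMIs per germ-cell-like droplet against 0.986 per pregranulosa-like cell at E85, and 0.397 against 13.05 at E125. Summed pregranulosa markers stood at 1103 CPM in pregranulosa-like cells at E85 and 3189 CPM at E125, beside 534 and 722 CPM in surface-epithelium-like cells. In E85 pregranulosa-like cells WNT4 had 0 UMIs, LGR5 1, RSPO1 and AMH 3 each, WNT6 7 and AMHR2 11, while KITLG had 295 and TRIB2 998. Pregranulosa-like cells were mostly cluster 10 at E85 (289 cells) and cluster 11 at E125 (577 cells). A further 220 E125 cells came from cluster 7, which was led by cell division genes such as TOP2A. Cluster 7 had no pregranulosa marker among its 10 leading genes, and its 110 E85 cells were named stromal-like. Summed stromal markers stood at 387 CPM in pregranulosa-like cells at E85 and at 1005 CPM at E125.

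The first comparison set germ-cell-like against pregranulosa-like cells within each library. A gene counted as measured with 50 or more UMIs over both classes and as higher or lower at a 2-fold ratio of CPM. At E85, 5 transporters were measured, of which 1 was higher in germ-cell-like cells (34.2% of 6006 measured features were) and 2 were lower (19.2% of features). At E125, 28 were measured, of which 15 were higher (34.1% of 10413 features) and 7 were lower (25.5% of features). Their median log2 ratio at E125 was 1.26, beside 0.17 over all measured features. A gene that reached 50 UMIs mainly through the class where it is high had to differ, so these counts are descriptions. SLC6A5 was higher and SLC2A3 lower in both libraries. Without the 10 deepest germ-cell-like droplets SLC6A5 no longer reached 50 UMIs at E85, and 0 were higher there, for which no share over all features is given.

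**Figure D1:**
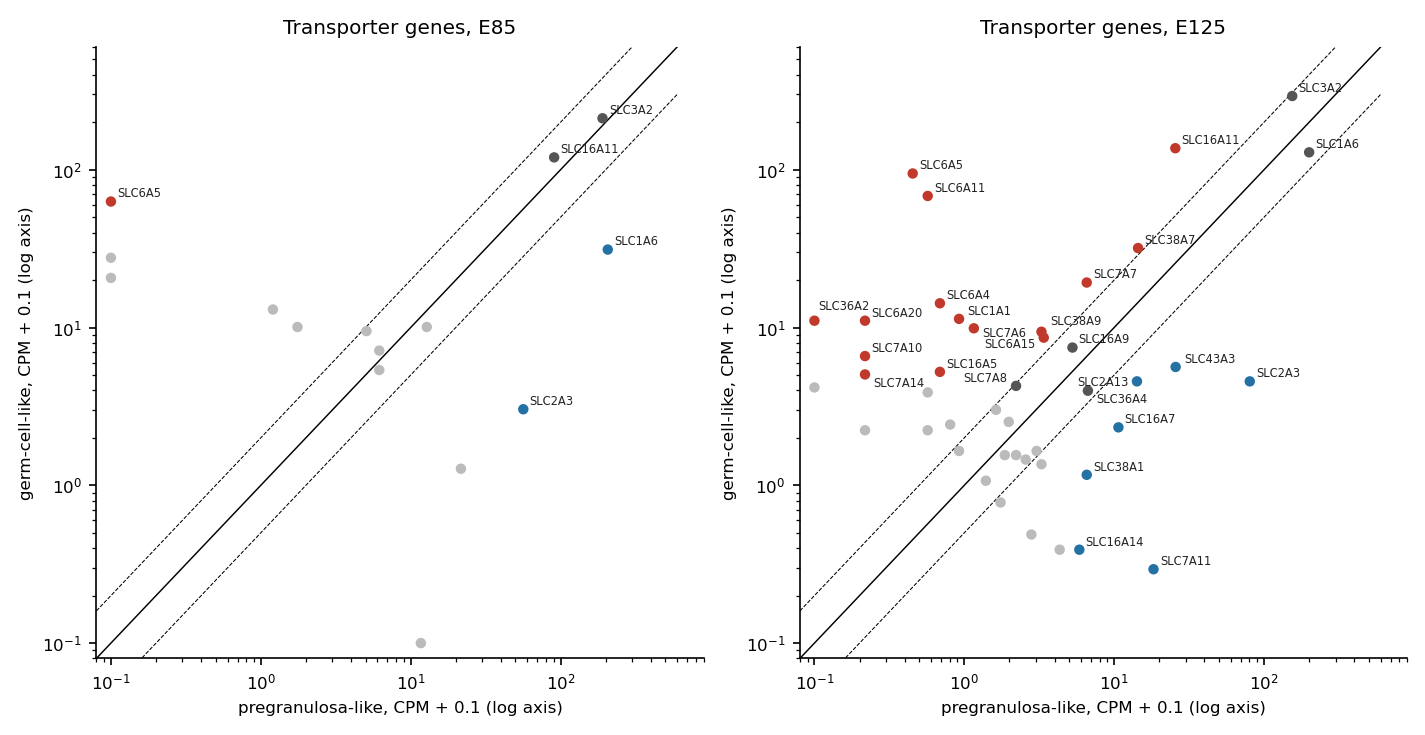
Level of the transporter genes reported here in germ-cell-like cells (vertical axis) against pregranulosa-like cells (horizontal axis) in the E85 and E125 libraries, in CPM plus 0.1 on log axes, for genes with 20 or more UMIs over both classes. Red and blue points are measured genes at least 2-fold higher or lower in germ-cell-like cells, dark grey points lie within 2-fold, light grey points have fewer than 50 UMIs and no name, the solid line marks equal levels and the dashed lines a 2-fold ratio. SLC6A5 and SLC6A11 lie far above the line at E125 and SLC2A3 and SLC7A11 far below it.

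Of the SLC6A family, SLC6A4, SLC6A5, SLC6A11, SLC6A15 and SLC6A20 were higher in germ-cell-like cells at E125, while SLC6A6 had 10 UMIs there and 11 in pregranulosa-like cells. SLC6A5, the sodium- and chloride-dependent glycine transporter GlyT2 best known from glycinergic nerve endings, had 107 UMIs at E85 (62.8 CPM) and 976 at E125 (94.6 CPM) in germ-cell-like cells. Pregranulosa-like cells had 0 and 3 UMIs of SLC6A5. The level was thus at least 37.9-fold higher at E85, against a floor of 3 UMIs, and 268-fold higher at E125 (91.6 to 1304). The E85 value leaned on 1 droplet, the deepest of the library at 214449 UMIs, which held 49 of the 107 UMIs, and without it the SLC6A5 level was 39.0 CPM. In the 22 large E85 droplets the SLC6A5 count per droplet had a lowest value of 0, a median of 2 and a highest of 49. In the 76 large E125 droplets SLC6A5 had a median of 12.5 and a highest of 34, and 75 of them held at least 1 UMI. Most large E125 droplets thus carried the transcript, and the pregranulosa-like droplets of similar depth lay at or near 0 in the plot of counts per droplet.

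**Figure D2:**
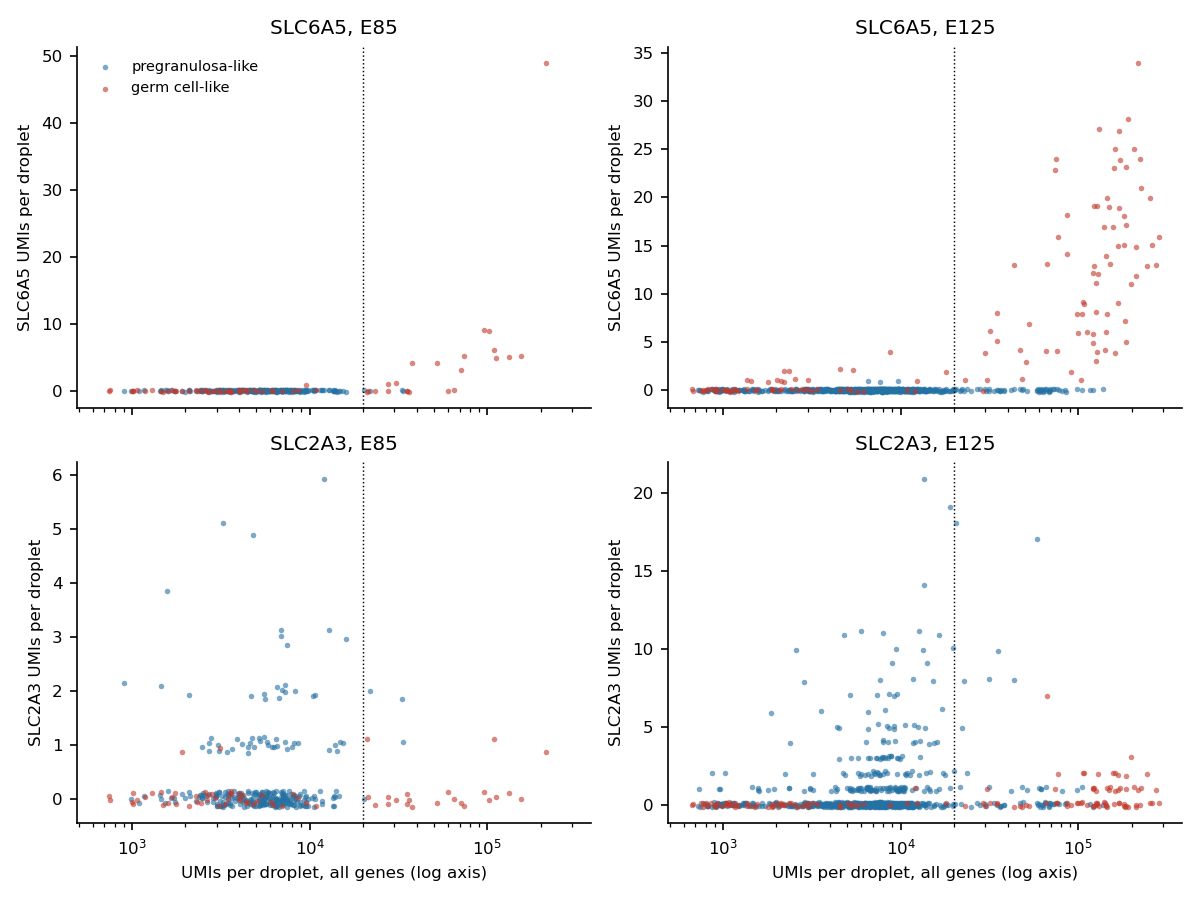
UMIs of SLC6A5 (top) and SLC2A3 (bottom) in each germ-cell-like (red) and pregranulosa-like (blue) droplet, against the droplet's total UMIs on a log axis, at E85 (left) and E125 (right). Each point is a droplet, moved up or down by at most 0.15 UMIs so that points can be told apart, and the dotted line marks 20000 UMIs. SLC6A5 reaches 34 UMIs in a red point at E125 while the blue points stay at or near 0. SLC2A3 is above 0 in 20.55% of blue and 7.25% of red points at E85, and in 27.1% and 21.3% at E125. Among red points of 20000 or more UMIs at E125 the share is 36.8%.

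With cells thinned to 2000 UMIs, SLC6A5 was found in 5.56% of germ-cell-like cells at E85 (1.16 to 15.4, 54 cells) and 20.2% at E125 (12.96 to 29.2, 104 cells), after 15 and 32 shallower cells had been left out. Unthinned, the shares were 20.3% and 66.2% at median depths of 4192 and 45381 UMIs. In pregranulosa-like cells thinned to the same depth SLC6A5 was found in 0 of 277 cells at E85 and in 0 of 727 at E125. By a limit of 3 counts this allows up to 1.08% and 0.413% of cells with a UMI at this depth, and unthinned 3 of 807 E125 cells held one. Stromal-like cells, set beside these for comparison, held SLC6A5 in 0% of 2119 and 0.514% of 3502 thinned cells (0.305 to 0.811 at E125), with unthinned median depths of 2758 and 2807 UMIs. The germ-cell-like share was above the stromal-like share in the E125 library, and any part of free RNA in these shares was not tested.

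SLC6A11, the GABA transporter GAT3, had 35 UMIs at E85 (20.5 CPM) and 703 at E125 (68.2 CPM) in germ-cell-like cells. Pregranulosa-like cells had 0 and 4 UMIs of SLC6A11, a 145-fold difference at E125 (56.4 to 534). SLC6A4, the serotonin transporter, had 7 UMIs at E85 and 146 at E125 in germ-cell-like cells and was 24.1-fold higher than in pregranulosa-like cells at E125 (10.1 to 75.3). SLC6A20, a proline transporter, had 14 and 113 UMIs in germ-cell-like cells, and its single pregranulosa-like UMI at E125 gave a ratio of 93.2 (16.4 to 3714). SLC6A15, a carrier of branched-chain amino acids and proline, had 47 and 88 UMIs in germ-cell-like cells and 0 and 28 in pregranulosa-like cells. Its E125 ratio was 2.59 (1.68 to 4.12), and its direction was opposite with the mean of per-cell CPM (log2 ratio -0.29) and with the libraries clustered separately (-0.60).

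The SLC3A2 heavy chain (4F2hc or CD98) was abundant in both classes. Its level was 212 CPM at E85 and 293 CPM at E125 in germ-cell-like cells, and 191 and 154 CPM in pregranulosa-like cells, ratios of 1.11 (0.957 to 1.29) and 1.90 (1.78 to 2.03). SLC3A2 was found in all 22 large germ-cell-like droplets at E85 and in all 76 at E125. Of the light chains that pair with it, SLC7A7 and SLC7A6, which exchange cationic for neutral amino acids, were both higher in germ-cell-like cells at E125. SLC7A7 stood at 19.2 CPM against 6.46 CPM, a ratio of 2.97 (2.19 to 4.08), and SLC7A6 at 9.79 against 1.06 CPM, a ratio of 9.26 (4.69 to 20.8). SLC7A10, the small neutral amino acid exchanger Asc-1, had 5 and 67 germ-cell-like UMIs, and 0 and 1 in pregranulosa-like cells (ratio 55.3 at E125, 9.59 to 2215). SLC7A14, a lysosomal member of the family, had 6 and 51 germ-cell-like UMIs and 0 and 1 in pregranulosa-like cells (ratio 42.1 at E125, 7.22 to 1694). SLC7A8, a light chain for large neutral amino acids, was within 2-fold (4.17 against 2.12 CPM). SLC7A5, the large neutral amino acid light chain LAT1, was sparse, with 0 and 4 UMIs in germ-cell-like cells and 3 and 23 in pregranulosa-like cells.

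SLC7A11, the cystine and glutamate exchanger xCT and also an SLC3A2 partner, had the opposite pattern. It had 2 UMIs in each library in germ-cell-like cells, and 39 (21.6 CPM) and 155 (18.2 CPM) in pregranulosa-like cells. At E125 it was 93.9-fold lower in germ-cell-like cells (25.6 to 783). SLC1A1, the glutamate and cysteine transporter EAAT3, was in contrast 13.7-fold higher there at E125 (6.43 to 34.8), with 116 UMIs against 7, and had 16 against 1 at E85. The class with little SLC7A11 thus held the SLC1A1 transcript in both libraries.

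SLC1A6 encodes the glutamate transporter EAAT4. Its level was 31.1 CPM in germ-cell-like and 207 CPM in pregranulosa-like cells at E85, 6.64-fold lower (4.97 to 9.03), and 129 against 200 CPM at E125, 1.55-fold lower (1.44 to 1.67), with the opposite sign at clustering resolution 2 (log2 ratio 0.15). At E85, 38 of the 53 germ-cell-like UMIs of SLC1A6 lay in 1 droplet of 109076 UMIs, which also held 20 UMIs of DDX4 and 1 of FST, and 3 of the 22 large droplets had any. At E125, 72 of the 76 large droplets had SLC1A6. With large droplets thinned to 20000 UMIs, SLC1A6 was found in 9.09% of those at E85 (1.12 to 29.2) and in 82.9% of the E125 ones (72.5 to 90.6).

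SLC2A3, the high-affinity glucose transporter GLUT3, had 5 UMIs at E85 (2.94 CPM) and 46 at E125 (4.46 CPM) there, against 102 (56.4 CPM) and 683 (80.3 CPM) in pregranulosa-like cells. It was 19.2-fold lower at E85 (7.96 to 60.4) and 18.0-fold lower at E125 (13.3 to 24.8). SLC2A3 was also lower per droplet over each whole class. Its means were 0.0725 against 0.349 UMIs at E85 and 0.338 against 0.846 at E125. Median depths were 4192 against 5596.5 UMIs at E85 and 45381 against 7162 at E125. The 76 large E125 germ-cell-like droplets averaged 0.592 UMIs of SLC2A3. Pregranulosa-like droplets of similar depth were not averaged separately. Their SLC2A3 counts varied, for example 0 in those of 138221 and 116740 UMIs, 1 in that of 105206 and 17 in that of 58951. Whether SLC2A3 was lower than in pregranulosa-like droplets of like depth was thus not tested. With cells thinned to 2000 UMIs, SLC2A3 was found in 1.85% against 7.94% of cells at E85 and 0.96% against 11.4% at E125. SLC2A1, the widespread glucose transporter GLUT1, had 2 UMIs in each library in germ-cell-like cells and 7 and 12 in pregranulosa-like cells. SLC2A8, a mostly intracellular glucose carrier, had 0 and 11 UMIs in germ-cell-like cells and 1 and 7 in pregranulosa-like cells. SLC2A13, which carries myo-inositol with protons, was 3.16-fold lower in germ-cell-like cells at E125 (2.23 to 4.54).

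Lower as a share of the class's RNA did not always mean fewer molecules per droplet. Of the 7 transporters that were lower at E125, SLC2A3, SLC7A11 and SLC16A14 were also lower per droplet, at 0.400, 0.0766 and 0.363 of the pregranulosa-like mean. These means run over all 136 germ-cell-like droplets, small ones included. SLC2A13, SLC16A7, SLC38A1 and SLC43A3 were higher per droplet, at 2.27, 1.52, 1.19 and 1.55 of it. Pregranulosa markers were counted in the same droplets at 0.0205 (AMH) to 2.66 (AMHR2) of the pregranulosa-like mean, and any part of other cells' RNA in these values was not tested. Within the E125 pregranulosa-like class, cluster 7 stood above cluster 11 for SLC16A14 (20.9 against 2.44 CPM) and SLC2A13 (22.9 against 12.1 CPM). The same held for SLC38A1 (11.8 against 5.31 CPM), SLC43A3 and SLC2A3, while SLC16A7 and SLC7A11 were lower in cluster 7.

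Among the monocarboxylate carriers, SLC16A11, which carries pyruvate and related acids, stood at 120 CPM at E85 and 137 CPM at E125 in germ-cell-like cells. In pregranulosa-like cells its level was 90.6 and 25.5 CPM, ratios of 1.32 (1.07 to 1.63) and 5.37 (4.65 to 6.22). SLC16A9, a carnitine carrier, was within 2-fold at E125, with a ratio of 1.43 (0.970 to 2.12). SLC16A5 was 8.74-fold higher in germ-cell-like cells at E125 (3.52 to 28.0). SLC16A7, the high-affinity lactate and pyruvate carrier MCT2, had 0 and 23 germ-cell-like UMIs against 21 and 90, and was 4.74-fold lower at E125 (2.97 to 7.86). SLC16A14, whose substrate is not firmly known, had 3 germ-cell-like UMIs against 49, a ratio of 0.0505 (0.0101 to 0.157). SLC16A3, the lactate exporter MCT4, had 0 UMIs in germ-cell-like cells and 1 and 4 in pregranulosa-like cells. No feature carried the symbols SLC16A1 or SLC6A9, and these genes are not analysed here.

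Lysosomal and small neutral amino acid carriers divided by gene. SLC36A2, a proton-coupled carrier of glycine and proline, had 8 and 113 UMIs in germ-cell-like cells and 0 in pregranulosa-like cells in both libraries, at least 31.1-fold higher at E125. SLC38A7, a lysosomal glutamine exporter, was 2.22-fold higher at E125 (1.80 to 2.75), with 31.8 against 14.3 CPM. SLC38A9, the lysosomal arginine sensor of the mTORC1 pathway, was 2.93-fold higher (1.90 to 4.68). SLC38A1, a sodium-coupled glutamine carrier, was 6.06-fold lower at E125 (3.14 to 12.8), with 11 UMIs against 55, and its RefSeq neighbour SLC38A2 had 3 against 36. SLC43A3, a carrier of purine nucleobases, was 4.64-fold lower at E125 (3.45 to 6.32), and SLC36A4, an amino acid carrier of the SLC36A family, was within 2-fold at 0.589 (0.383 to 0.900). The pregranulosa-like level of SLC43A3 was 87.6 CPM in the dividing cluster 7 and 11.9 CPM in cluster 11. Over 12 alternatives the SLC43A3 log2 ratio between classes ran from -2.32 to -1.06.

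The second comparison set E125 against E85 within a class. In germ-cell-like cells 21 transporters were measured, of which 9 were higher at E125 (19.4% of 9077 features) and 1 was lower (17.6% of features), with a median log2 ratio of 0.59 beside -0.06 over all features. Germ-cell-like cells held 1703581 UMIs at E85 and 10315396 at E125, so a gene could reach the minimum UMI count mainly through E125. A gene higher at E125 thus entered more easily than a lower one, and these counts and the median are descriptions. The shares over all features used the same minimum, and a smaller minimum gave more lower transporters. The other classes compared between stages also held more UMIs at E125, so this limit applies there too. The summed level of all 76 genes was 608 CPM at E85 and 939 CPM at E125. Scaling by TMM or by DESeq2 size factors shifted every germ-cell-like log2 ratio between stages by 0.26 or 0.24, and every pregranulosa-like one by 0.15 or 0.18. With the mean of per-cell CPM, 14 were higher and 2 lower, for which no share over all features is given here.

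SLC1A6 was 4.14-fold higher at E125 in germ-cell-like cells (3.15 to 5.56), and 13.7-fold higher without the E85 droplet that held most of its UMIs. SLC6A11 was 3.32-fold higher (2.36 to 4.80), SLC6A4 3.45-fold (1.63 to 8.72) and SLC38A7 3.19-fold (1.96 to 5.54). The interval of each of these lay above 1. SLC43A3 was 9.41-fold higher (1.62 to 378), with 1 UMI at E85 and 57 at E125, and SLC36A2 2.33-fold (1.14 to 5.54). SLC7A7, SLC16A9 and SLC7A10 were 2.04-, 2.51- and 2.21-fold higher, the last with an interval that reaches below 1 (0.903 to 7.04). SLC6A5 was within 2-fold at 1.51 (1.23 to 1.86), and 2.43-fold higher without the deepest E85 droplet. SLC6A15 alone was lower, with 27.6 CPM in the E85 library and 8.53 CPM in the E125 one, 3.23-fold (2.22 to 4.66).

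The ratios between stages were also taken over droplets of 20000 or more UMIs alone. There the ratio was 3.95 for SLC1A6, 3.18 for SLC6A11, 3.13 for SLC6A4, 3.80 for SLC38A7 and 0.291 for SLC6A15. For SLC6A5 it was within 2-fold at 1.37 (1.12 to 1.69). At 20000 UMIs per large droplet SLC6A5 was found in 27.3% of droplets at E85 (10.7 to 50.2) and 73.7% at E125 (62.3 to 83.1), and SLC6A11 in 36.4% (17.2 to 59.3) and 75.0% (63.7 to 84.2). More of the large E125 droplets thus held each transcript at matched depth.

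**Figure D3:**
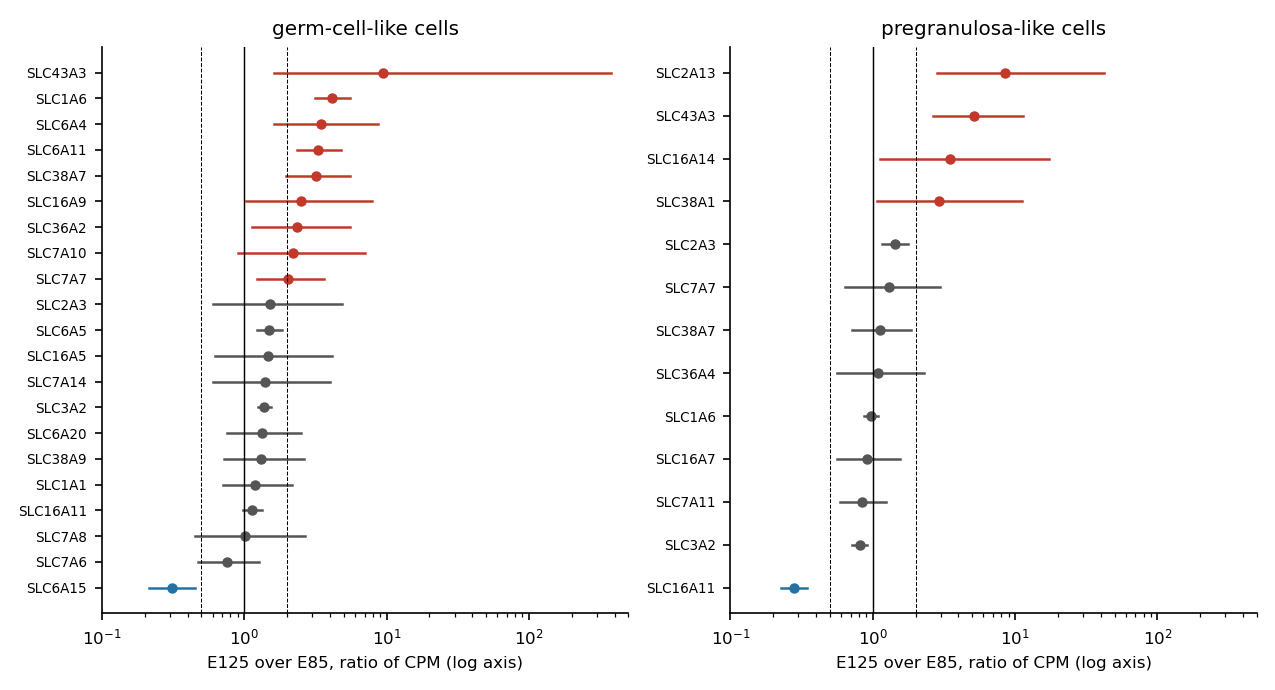
Ratio of CPM at E125 over E85 (log axis) for the transporter genes reported here that were measured in germ-cell-like (left) and pregranulosa-like (right) cells, with exact 95% intervals for counting error. Red and blue mark genes at least 2-fold higher or lower at E125, the solid line marks equal levels and the dashed lines a 2-fold ratio. SLC43A3 is higher at E125 in both classes, whereas SLC1A6 is 4.14-fold higher in germ-cell-like cells and near 1 in pregranulosa-like cells.

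In pregranulosa-like cells 13 transporters were measured, of which 4 were higher at E125 (17.2% of 7976 features) and 1 was lower (10.5% of features). The class was not alike in its markers, with AMH at 0.0103 UMIs per cell at E85 and 1.79 at E125. FST stood at 0.986 and 13.05 UMIs per cell. The E125 class thus included AMH-expressing cells, and its ratios between stages may compare unlike cells. SLC2A13 was 8.51-fold higher (2.84 to 41.8), SLC43A3 5.15-fold (2.66 to 11.4), SLC16A14 3.47-fold (1.12 to 17.4) and SLC38A1 2.92-fold (1.08 to 11.1). Part of this lay in the dividing cluster 7, whose E85 cells were named stromal-like. There SLC43A3 stood at 87.6 CPM against 11.9 CPM in cluster 11, and SLC16A14 at 20.9 against 2.44 CPM. Without the dividing cluster 2 transporters were higher, with a stricter cell filter 2, and with the libraries clustered separately 1. No shares over all features are given for these settings. SLC16A11 was 3.55-fold lower at E125 (2.88 to 4.37), with 5.23 CPM in cluster 7 and 30.0 CPM in cluster 11, but its log2 ratio was 0.10 when cells were clustered at resolution 2. SLC1A6 had nearly the same level at both stages, with a ratio of 0.968 (0.865 to 1.08), SLC7A11 a ratio of 0.845 (0.592 to 1.23) and SLC2A3 one of 1.42 (1.16 to 1.77). Within the E125 class SLC2A3 was higher in the dividing cluster (129 against 69.6 CPM) and SLC1A6 lower (57.5 against 231 CPM).

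Across the other classes the transporters differed by cell type. Endothelial-like cells, the lining of blood vessels, had the highest summed level of the 5 compared classes, at 1158 CPM at E85 and 1503 CPM at E125, against 673 and 624 CPM in pregranulosa-like cells. SLC6A6, the taurine transporter, stood at 244 CPM (137 UMIs) and 391.9 CPM (2325 UMIs) there and at 22.2 CPM or less in germ-cell-like, pregranulosa-like, stromal-like and surface-epithelium-like cells. SLC2A3 stood at 301 and 362 CPM. At E125 these levels came from cluster 8, with 445 CPM of SLC6A6 and 396 CPM of SLC2A3. Cluster 20, 63 cells led by CCL21, FLT4 and PROX1, genes of lymphatic vessels, had 0 UMIs of SLC6A6 and 29.5 CPM of SLC2A3. SLC6A6 was among the 10 leading genes of cluster 8. The class was named from markers that do not include SLC6A6. Some transporters were among the variable genes used for clustering, so the level of SLC6A6 may in part have shaped the cluster. SLC2A1 was 7.05-fold lower at E125 in endothelial-like cells (4.02 to 12.1), with 24 and 36 UMIs (42.8 and 6.07 CPM), the single lower gene of 15 measured (7.54% of 7032 features were lower). The 4 higher genes (20.7% of features) were SLC2A13 and, with intervals that reach below 1, SLC7A7, SLC43A1 and SLC36A4.

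**Figure D4:**
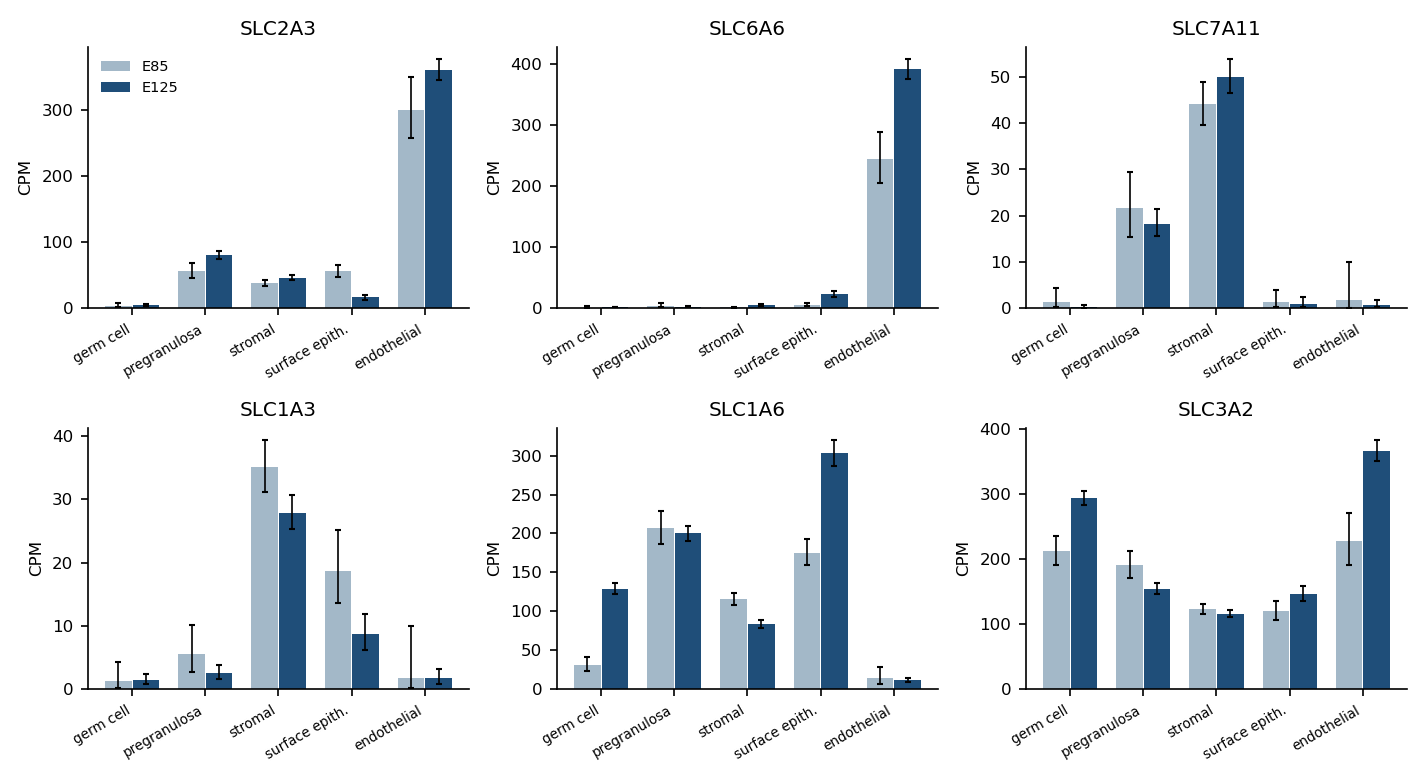
Level in CPM of 6 transporter genes in 5 cell classes of the E85 (light bars) and E125 (dark bars) libraries, each bar the summed UMIs of the class and each error bar an exact Poisson 95% interval for counting error. SLC6A6 and SLC2A3 are highest in endothelial-like cells, SLC7A11 and SLC1A3 in stromal-like cells, and germ-cell-like cells are at most 4.46 CPM for all 4.

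Stromal-like cells held the highest levels of SLC7A11, at 44.1 and 50.1 CPM, and of SLC1A3, the glutamate transporter EAAT1, at 35.1 and 27.9 CPM. SLC7A11 was a leading gene of the largest E85 stromal-like cluster. Most E85 stromal-like cells were in clusters 1 and 2 and most E125 ones in clusters 16, 21, 22 and 23, and SLC7A11 ran from 18.6 to 62.3 CPM among these. Of 27 transporters measured in stromal-like cells 6 were higher at E125 (17.8% of 10135 features) and 1 was lower (12.1% of features). SLC2A13 was 10.7-fold higher (7.26 to 16.4), SLC6A6 8.99-fold (3.34 to 34.0), SLC43A3 2.80-fold (2.39 to 3.30), SLC16A7 2.54-fold (1.30 to 5.42), SLC38A1 2.48-fold (1.83 to 3.44) and SLC36A4 2.34-fold (1.79 to 3.09). SLC16A11 was 3.50-fold lower (2.60 to 4.76).

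Surface-epithelium-like cells, the covering layer of the ovary, held SLC1A6 at 175 CPM at E85 and 303 CPM at E125, and SLC16A11 at 108 and 137 CPM. The SLC1A6 log2 ratio between stages was 0.79, but -4.11 at resolution 2 and 1.94 without doublet removal. The class was cluster 0 at E85 and mainly cluster 18 at E125, so stage and cluster differ together. Of 16 transporters measured 5 were higher at E125 (13.1% of 7094 features) and 2 were lower (8.11% of features). SLC2A3 was 3.48-fold lower (2.58 to 4.73), with 55.1 and 15.8 CPM, and SLC1A3 2.17-fold lower (1.37 to 3.45), though its log2 ratio was 1.33 at resolution 2. SLC2A13 was 11.5-fold higher (3.76 to 57.0), SLC16A9 5.63-fold (2.27 to 18.0), SLC6A6 4.64-fold (2.48 to 9.61) and SLC38A1 2.27-fold (1.17 to 4.86). In endothelial-like cells SLC2A13 had 0 UMIs at E85 and 88 at E125, at least 2.78-fold higher. SLC2A13 was thus higher at E125 in each of the 4 somatic classes compared, and germ-cell-like cells had 1 UMI of it at E85 and 46 at E125.

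Genes that act on the same nutrients were set beside the transporters. Of 17 listed glycolysis genes 10 were measured between germ-cell-like and pregranulosa-like cells at E125, of which 7 were lower (25.5% of all measured features were) and 1 higher (34.1% of features) in germ-cell-like cells. Their median log2 ratio was -2.33, beside 0.17 over all features. At E85, 3 of 6 were lower (19.2% of features) and 0 were higher (34.2% of features). HK1, the hexokinase that commits glucose to the cell, was 11.2-fold lower at E85 (7.85 to 16.5) and 8.70-fold lower at E125 (7.61 to 9.99). PFKL, a phosphofructokinase, was 8.16- and 11.5-fold lower, and PKM, pyruvate kinase, had a ratio of 1.03 at E125. Of 13 genes of pyruvate use and the pentose phosphate pathway 1 of 2 measured was lower at E85 (19.2% of features) and 3 of 6 at E125 (25.5% of features). None was higher (34.2% and 34.1% of features). TKT, transketolase, was 3.57- and 3.75-fold lower.

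Among 18 genes of serine, glycine and glutamine metabolism, 3 of 7 measured were lower (25.5% of features) and 2 higher (34.1% of features) in germ-cell-like cells at E125. PHGDH, the first enzyme of serine synthesis, was 17.8-fold lower at E85 (13.5 to 24.0) and 11.5-fold lower at E125 (10.1 to 13.1). GOT2, the mitochondrial aspartate aminotransferase, was 3.05-fold higher at E125 (2.81 to 3.30) and 1.98-fold higher at E85. PHGDH was lower per droplet as well, at 0.224 and 0.627 of the pregranulosa-like mean, whereas GOT2 was 7.87 and 21.9 times that mean.

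Of the transporter partners and gap junction genes, GJA1, which encodes connexin 43 of granulosa cells, was 74.4-fold lower in germ-cell-like cells at E85 (20.3 to 619) and 70.7-fold lower at E125 (46.0 to 115). GJA4, which encodes connexin 37 of the oocyte, was 9.72-fold higher at E125 (4.93 to 21.8). TXNIP, a glucose-responsive arrestin that lowers glucose uptake, was 11.1-fold lower at E125 (8.64 to 14.5). TXNIP and its relative ARRDC4 were 3.56- and 3.52-fold lower at E125 than at E85 within germ-cell-like cells, and ARRDC4 was 2.27-fold higher within pregranulosa-like cells. Of 10 genes of the amino acid stress response 6 were measured between stages in germ-cell-like cells. Of these 3 were higher at E125 (19.4% of features) and 1 was lower (17.6% of features). ATF4, the central transcription factor of the response, DDIT3 and SESN2 were 2.19-, 2.13- and 2.01-fold higher and DDIT4 was 5.63-fold lower. In pregranulosa-like cells 0 of 6 were higher (17.2% of features) and 1, DDIT4, was lower (10.5% of features).

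The other members described here had few UMIs in germ-cell-like and pregranulosa-like cells. In all kept cells 28 of the 76, the 5 at 0 among them, had fewer than 50 UMIs over both libraries. SLC1A5, the neutral amino acid exchanger ASCT2, had 2 and 0 UMIs in germ-cell-like cells and 0 and 2 in pregranulosa-like cells, and SLC38A4 had 0 in both classes. SLC36A1, SLC38A3 and SLC43A2 had 24, 12 and 15 UMIs in germ-cell-like cells at E125 and 6, 6 and 18 in pregranulosa-like cells. SLC6A2, the noradrenaline transporter, had 42 UMIs in germ-cell-like cells at E125 and 0 in pregranulosa-like cells, and SLC6A17 had 39 and 4. These fell short of 50 UMIs and were not compared by ratio.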

How the data were processed

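Single-cell RNA was measured in 2 libraries of fetal goat ovary (E85 and E125). Per the labels' protocols, tissue was digested enzymatically and a 10x 3′ kit of version 3.1 was used. The protocol names testes, but the samples are labelled as female ovary, which was taken as true. The deposited values are whole UMI counts for each gene in each barcode, without normalization. The submitters' processing notes name Cell Ranger 3.1 and the file headers 6.0.0. The sources used here give neither genome build nor annotation. Symbols come from the deposited files, and 72 of the 76 members matched the RefSeq table (ARS1.2), used for gene order.

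Barcodes with under 500 genes or over 20% mitochondrial UMIs were left out (425 and 809). Scrublet's own threshold called 1 and 0 barcodes, so the highest scores were removed at 0.8% per 1000 barcodes (140 and 503), and doublets may remain. Both libraries were clustered together (scanpy 1.11.5, 2000 variable genes, 11 of them members, 30 components, 15 neighbours, Leiden resolution 1). A cluster of 15 or more cells was named for the class whose markers, each as a share of its highest cluster CPM, had the largest mean there, if at least 0.3 with 3 markers at 0.25. Smaller parts took the other library's name, and 257 and 44 cells stayed unnamed. This rule was picked in earlier work after clusters were seen, and a difference from the study may come from rebuilt names.

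UMIs of all cells of a class in 1 library were added up and expressed as CPM of their total. CPM compares classes for 1 gene, not genes with each other, since 3′ counts depend on the annotated gene end. Sums carry exact Poisson, ratios exact conditional and shares Clopper-Pearson 95% intervals. A share of 0 is given with the limit of 3 counts. A class sum of 0 was replaced by 3 UMIs and the ratio given as a bound. The calculation was tested on simulated data. Alternatives used edgeR 4.0.16 (TMM) and DESeq2 1.42.0 size factors, other thresholds, filters and clusterings (mean of per-cell CPM included). Members, lists and markers were chosen with earlier results of these data known. Named were members past 2-fold the same way in both libraries, the 5 highest and lowest stage ratios per class, the top member of each subfamily, 22 textbook transporters of which 2 have no feature, and the 2 leading members of each other class; SLC6A2, SLC6A17, SLC6A20, SLC7A7, SLC7A10, SLC7A14, SLC16A5, SLC16A9, SLC36A4, SLC38A9, SLC43A1 and genes counted by name were added after their values were seen. Some members and listed genes that enter the counts are not reported here by name.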

Additional observations from a re-analysis of the deposited data

How the results depend on the processing

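With 1 library per stage, leaving out a replicate was not possible. No paired analysis was possible because each group has 1 sample. Of 896 alternative values for single genes 790 stayed within the counting interval of the reported value, 102 moved and 4 went from a reported value past 2-fold to the opposite sign: SLC6A15 between classes at E125 (-0.29 with per-cell means, -0.60 with separate clustering), SLC16A11 between stages in pregranulosa-like cells (0.10) and SLC1A3 in surface-epithelium-like cells (1.33), both at resolution 2. A further 46 with a reported value within 2-fold had the opposite sign, 2 of them past 2-fold: SLC1A6 between stages in surface-epithelium-like cells at resolution 2 (-4.11, reported as 0.79) and SLC2A3 in germ-cell-like cells with per-cell means (-1.90, reported as 0.60). The causes were not tested. Resolution 0.5 was not run for germ-cell-like over pregranulosa-like at E85 and for the pregranulosa-like stage comparison, since 3 pregranulosa-like cells were left at E85.

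Alternatives for the stromal-like, surface-epithelium-like and endothelial-like classes, and those without the dividing cluster, without the members among the variable genes or without a single droplet, were chosen after seeing the data. Counts of higher and lower members moved as follows. No shares over all features are given here for these settings, so the counts cannot be set against the general rate. With a minimum of 20 UMIs, E85 gave 5 higher and 4 lower and E125 11 lower between classes; between stages 4 were lower in germ-cell-like, 3 in pregranulosa-like, 6 in stromal-like and 2 in endothelial-like cells. With 200 UMIs, E85 gave 0 and 1 and E125 5 and 2; stages gave 4 and 0 in germ-cell-like cells, 1 higher in pregranulosa-like cells, and 0 and 0 in surface-epithelium-like and in endothelial-like cells. A 3-fold threshold left 5 higher in germ-cell-like, 2 in stromal-like, 3 (1 lower) in surface-epithelium-like and 1 in endothelial-like cells. Without the 10 largest droplets 0 were higher at E85. Per-cell means gave 14 and 2 in germ-cell-like cells, 9 and 1 in surface-epithelium-like cells and 2 lower in endothelial-like cells. Separate clustering left 4 lower between classes at E125, 1 higher and 3 lower in pregranulosa-like cells and 1 lower in surface-epithelium-like cells. The stricter cell filter gave 2 higher in pregranulosa-like and 2 in surface-epithelium-like cells, resolution 0.5 gave 1 lower and resolution 2 gave 1 and 1 in the latter, no doublet removal gave 3 lower in endothelial-like cells, and leaving out the dividing cluster gave 2 higher in pregranulosa-like cells. Depth limits the E85 values: germ-cell-like cells held 1703581 UMIs there against 10315396 at E125, and endothelial-like cells 561208 against 5932205.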
